A study of Bos taurus with 9 samples.

Results

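The loci described here were the 998 shortest stretches of small RNA, under 18 bases, among 101889 loci (0.979%) deposited for extracellular vesicles (EVs) of bovine follicular fluid, left after removal of 14 short loci that the study lists as miRNA. Of the 998 loci, 543 were 16 bases long and 455 were 17 bases long, and no deposited locus was shorter than 16 bases. A locus was chosen by its length and by its absence from the study's lists of 704 miRNA loci. Those lists were themselves limited by counts, since all 704 loci had a mean of at least 100 in some follicle size, which 157 of the 998 loci reached. Loci below that mean could therefore not have been listed and removed. Fluid was drawn from follicles of cow ovaries that were called small at 3–5 mm, medium at 6–9 mm and large above 9 mm, and fluid of a size was pooled on a collection day. The labels name no treatment of the animals, and each group had 3 libraries, named small 1, 2 and 4, medium 5, 6 and 8, and large 10, 11 and 12. Each library was the EV RNA of a pool, so the spread within a size is that between pools and not between animals, and the labels do not say which pools share a collection day.

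EVs are membrane-bound particles that cells release. In the antral follicle they lie in the fluid that separates the granulosa cells of the wall from the oocyte with its cumulus cells. They carry miRNA, short RNAs that pair with messenger RNA and lower its translation, together with pieces of longer RNAs. Loci under 18 bases are shorter than a usual mature miRNA. The length is that of the effective region, the contiguous bases on which read depth is at least 20% of the highest depth of the locus, so it is not the length of the reads. A sequence this short can occur at more than 1 place in a genome, and the handling of reads that match more than 1 place is not given in the sources used here. The RNA class and the base sequence of the loci were not analysed here, since no genome or annotation of the build of the files (UMD3.1) was used.

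The 9 libraries held from 8941598 to 14664460 counts on all loci, and 3 counts, the floor used here, were 2.05e-05% to 3.36e-05% of a library. The 998 loci held 6352833 of 99838594 counts (6.363%), and 541 loci lay on the plus strand and 457 on the minus strand. A typical locus was low, with a median of 123 counts summed over the 9 libraries against 114 for the other deposited loci. Only 91 of the 998 loci reached 1000 counts, and 416 were under 100. In small and medium follicles 973 to 993 of the loci had a count in a library, and in large follicles 833 to 947 had one. Loci at 0 in all 3 libraries of a size numbered 2 in small follicles, 2 in medium ones and 29 in large ones.

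The highest count of all deposited loci was that of a locus of 16 bases on the plus strand of chromosome 29, whose last base is 834924 in UMD3.1. It held 5381621 counts, which was 84.71% of the counts on loci under 18 bases and 5.39% of all counts in the data. Its count was 4.711 times that of the next deposited locus, chr6:76856521-76856552 of 32 bases, and 57.13 times that of the next locus under 18 bases. It ranked highest of all loci in 8 libraries and second in small 2. In small follicles it took 3.15, 3.39 and 3.34% of all counts of small 1, 2 and 4. Its share was 4.14, 11.3 and 5.17% in medium 5, 6 and 8 and 7.44, 4.50 and 6.22% in large 10, 11 and 12. Every medium and large library lay above the 3 small ones, medium 6 stood far above the rest, and medium and large overlapped. The mean share was 3.29% ± 0.125 (SD, n = 3) in small follicles, 6.85% ± 3.85 in medium and 6.05% ± 1.47 in large ones. A trend with the order of sizes did not pass an exact permutation test, two-sided (p = 0.2131, 0.2841 adjusted by Benjamini-Hochberg over 8 measures). Without medium 6, the same exact test gave an unadjusted p of 0.007143. With 3 against 3 libraries, the smallest p of an exact test between 2 sizes is 0.1, and both medium and large against small gave that value.

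**Figure D1:**
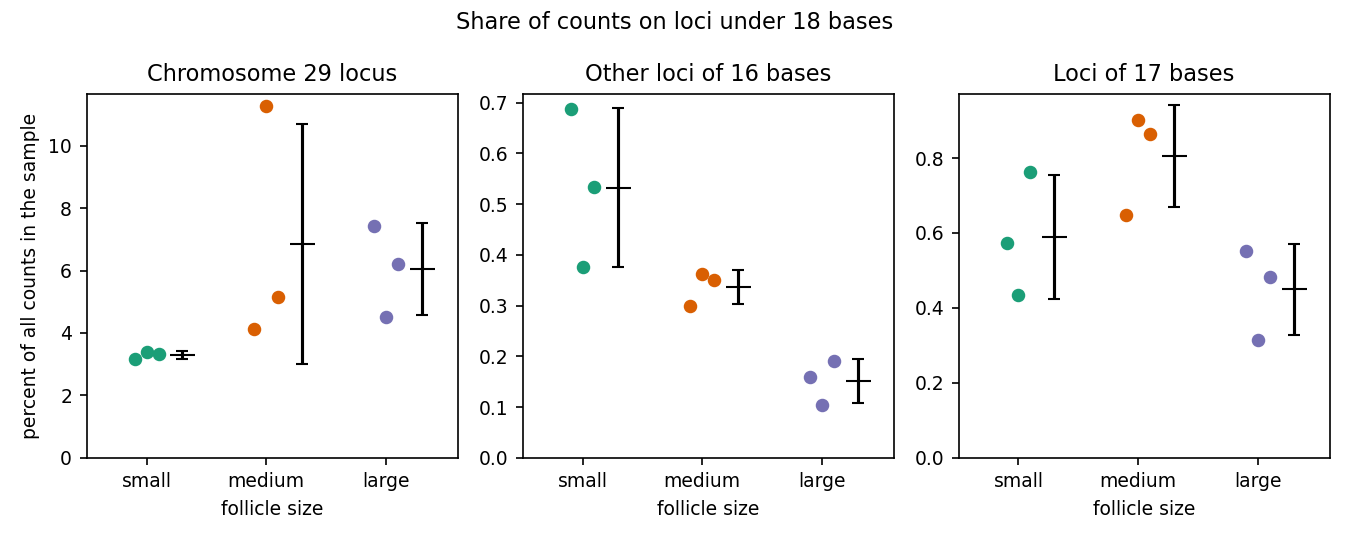
Percent of all counts in a library (y axes from 0, scales differ) on the chromosome 29 locus, on the other loci of 16 bases and on the loci of 17 bases, by follicle size; points are the 3 libraries of a size and bars the mean ± SD. The 3 small libraries lie below all others in the left panel, the 3 sizes are separate in the middle panel (means of 0.533, 0.337 and 0.151%), and the small libraries overlap both others on the right.

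Summed over the 998 loci, the share of counts was 4.41, 4.20 and 4.63% in the small, 5.09, 12.5 and 6.38% in the medium and 8.15, 4.92 and 6.89% in the large libraries. As for the chromosome 29 locus, all small libraries were lowest and medium 6 was highest. The trend did not pass the exact permutation test over the 9 libraries (p = 0.3607, adjusted 0.4122), and without medium 6 it gave an unadjusted p of 0.04286. The other 997 loci together held 0.9728% of all counts and had their lowest shares of all counts in large follicles. They took 1.26, 0.810 and 1.30% in the small, 0.948, 1.26 and 1.21% in the medium and 0.711, 0.419 and 0.673% in the large libraries. Small and medium overlapped, and all large libraries lay below both. The trend gave p = 0.04643 by the exact permutation test, which did not pass after adjustment (0.09286). The direction depended on what the 997 loci were set against. The log2 ratio of their share to that of the known and homologous miRNA loci of the study was −4.23 ± 0.130 in small follicles, −2.27 ± 0.845 in medium and −2.00 ± 0.977 in large ones (SD, n = 3 each), highest in large follicles, a trend that did not pass after adjustment either (exact permutation p = 0.02381, adjusted 0.06349). Against loci of 18 to 24 bases outside the miRNA lists the log2 ratio was −2.38 ± 0.399, −1.99 ± 0.231 and −2.60 ± 0.243 (exact permutation p = 0.4798). The part that the chromosome 29 locus took of the counts on loci under 18 bases rose with size. It was 71.4, 80.7 and 72.0% in the small, 81.4, 89.9 and 81.0% in the medium and 91.3, 91.5 and 90.2% in the large libraries. The 3 sizes did not overlap, and the rise had the smallest p that the 1680 arrangements of the libraries allow (exact permutation p = 0.00119, adjusted 0.00952).

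Few loci held most of these counts. The 10 highest-count loci held 84.8% ± 4.27 of the counts on loci under 18 bases in small follicles, 89.6% ± 4.62 in medium and 96.0% ± 0.961 in large ones (SD, n = 3 each). This rise passed the exact permutation test (p = 0.01071, adjusted 0.04284) and no longer passed once the chromosome 29 locus was left out. For the next 10 loci, as a part of the counts without that locus, the values were 41.9% ± 6.19, 40.3% ± 9.52 and 56.8% ± 6.55 in the same order, and the exact permutation test gave p = 0.07976. Without the chromosome 29 locus, 50% of the counts were reached with 11, 8 and 14 loci in the small, 10, 6 and 10 in the medium and 3, 3 and 7 in the large libraries. Over the 9 libraries, 22 loci held 94.83% and 100 loci 97.21% of the counts.

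**Figure D2:**
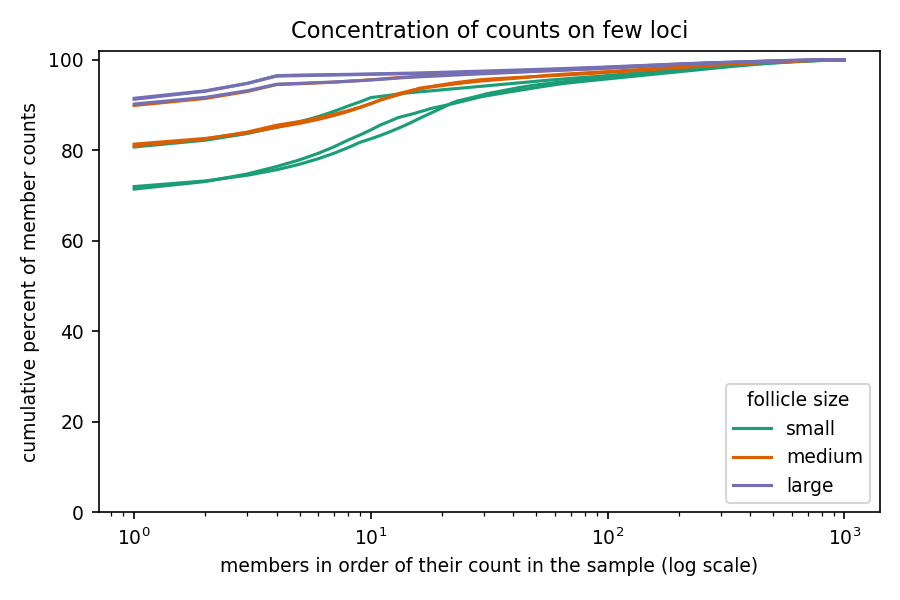
Cumulative percent of the counts on loci under 18 bases (y axis) against the number of loci, taken in the order of their count in that library (x axis, log scale), with a line per library coloured by follicle size. The 3 large libraries start highest, at 90.2 to 91.5% for 1 locus, and 2 of the small ones lowest, at 71.4 and 72.0%.

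Split by length, the loci of 16 bases other than the chromosome 29 locus were the only group of the 5 compared whose share changed with size after adjustment. They took 0.689, 0.376 and 0.534% of all counts in the small, 0.299, 0.362 and 0.351% in the medium and 0.160, 0.104 and 0.190% in the large libraries. No library of a larger size reached the lowest library of a smaller size. The means fell from 0.533% ± 0.156 to 0.337% ± 0.0337 and 0.151% ± 0.0439 (n = 3 each, exact permutation p = 0.00119, adjusted 0.00595 over 5 length groups), and with each library left out in turn the exact p was 0.001786 to 0.007143. Much of the share in small follicles lay on 2 sets of loci with equal counts, described below. They held 0.220 and 0.257% of all counts in small 1, 0.0323 and 0.196% in small 2 and 0.170 and 0.101% in small 4. In large 10 they held 0.00129 and 0.0111%. The share without these sets was not tested, so the fall is not shown for loci of 16 bases in general. Loci of 17 bases, just inside the length limit, had 0.590% ± 0.166, 0.805% ± 0.136 and 0.449% ± 0.121, which overlapped between small and the other sizes (exact permutation p = 0.4071). That group holds loci whose counts ran in parallel with the chromosome 29 locus, which are described with their ratio to it. Without these, a choice made after their counts were seen and so not tested, loci of 17 bases had 0.416% ± 0.172, 0.439% ± 0.130 and 0.115% ± 0.0525, with every large library below every small and medium one. Left out in the same way, the other loci of 16 bases had 0.515% ± 0.157, 0.299% ± 0.0233 and 0.119% ± 0.0383. Both lengths then had their lowest means in large follicles. The loci left out, of both lengths together, held 0.192, 0.404 and 0.366% of all counts in the same order. Leaving them out therefore lowers medium and large follicles more than small ones by construction, and no conclusion on size is drawn from it. Just outside the limit, the 1226 loci of 18 bases that are not listed as miRNA had 0.405% ± 0.0534, 0.614% ± 0.173 and 0.441% ± 0.128 (exact permutation p = 0.8048). Loci of 18 to 24 bases outside the miRNA lists, 5625 in number, had mean shares of 5.72, 4.58 and 3.67%, a trend that did not pass after adjustment (exact permutation p = 0.03214, adjusted 0.08035). These shares are parts of a whole, so a lower share cannot be told apart from more of another RNA in the library. The known and homologous miRNA loci of the study took 21.4% ± 6.59 of all counts in small follicles, 6.28% ± 4.27 in medium and 2.89% ± 2.39 in large ones.

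Many of the loci with 1000 or more counts had counts that could not be told apart from those of another locus elsewhere in the genome. Loci were put in a set where their totals lay within 10% and a chi-square test of their counts in the 9 libraries did not tell them apart (p above 0.001). The 91 loci formed 40 sets, of which 19 held more than 1 locus, 70 loci in all, and the largest held 9. In 18 of the 19 the loci lay on at least 2 chromosomes. The loci of a set are therefore not taken as independent measurements, and the 22 loci with the highest counts were only 7 sets. Next to the chromosome 29 locus stood a set of 3 loci of 17 bases on the minus strand, chr14:9462539-9462555, chr7:23809993-23810009 and chr8:7655165-7655181, with 94193, 92296 and 91794 counts. A set of 3 loci of 16 bases, chr8:89663095-89663110, chr3:51058570-51058585 and chr19:10017663-10017678, had 23106 to 23237 counts. A set of 4 loci of 16 bases lay as 2 pairs on chromosomes 7 and 18, at chr7:31761158-31761173, chr7:31762214-31762229, chr18:58226069-58226084 and chr18:58223230-58223245. In the same stretch of chromosome 18 lay a set of 7 loci of 17 bases, the outermost at chr18:58223594-58223610 and chr18:58237887-58237903, with 19801 to 20533 counts each.

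The sets differed in their course over follicle size. The set of 4 was lower at each step, with a summed share of 0.257, 0.196 and 0.101% in the small, 0.0373, 0.0469 and 0.0357% in the medium and 0.0111, 0.00671 and 0.0101% in the large libraries, and the 3 sizes did not overlap. The set of 3 on chromosomes 3, 8 and 19 had 0.220, 0.0323 and 0.170% in the small, 0.0758, 0.0115 and 0.0451% in the medium and 0.00129, 0.000987 and 0.0130% in the large libraries, with every large library below the small ones and medium overlapping both. The set of 7 was highest in medium follicles, at 0.310, 0.153 and 0.355%, against 0.0751, 0.0222 and 0.244% in small and 0.0207, 0.00875 and 0.0712% in large follicles. Small 4 lay among the medium libraries there, and large 12 lay above small 2. The set of 3 on chromosomes 7, 8 and 14 had the course of the chromosome 29 locus, at 0.149 to 0.184% in small and 0.242 to 0.425% in large follicles, with medium 6 highest at 0.579%.

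**Figure D3:**
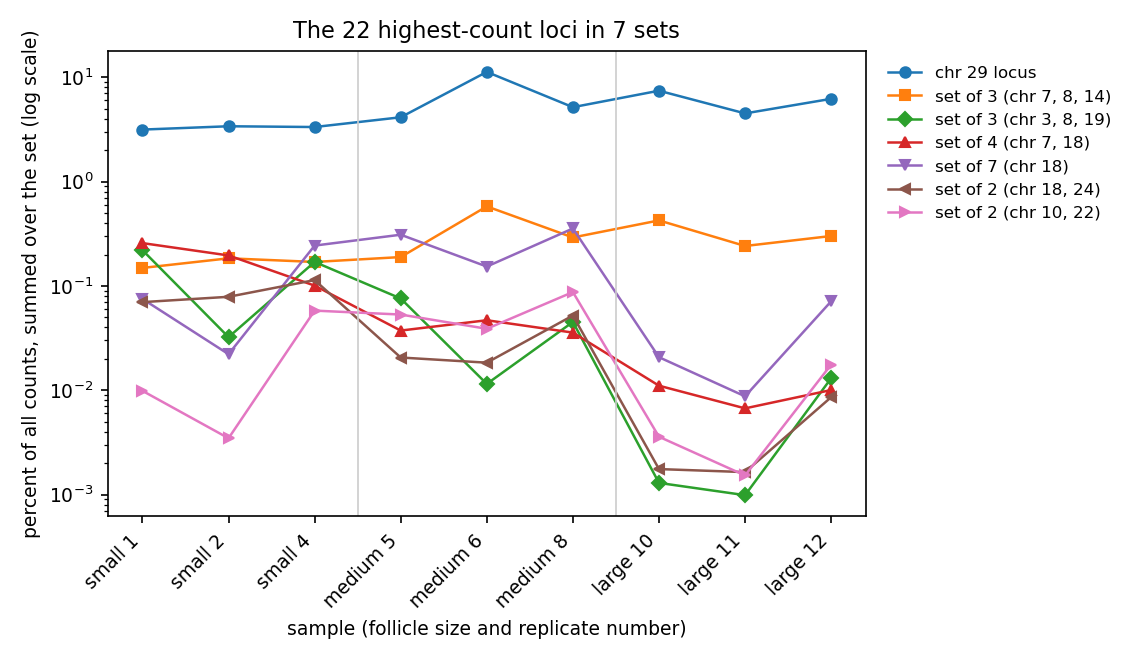
Percent of all counts in each library (y axis, log scale), summed over the loci of a set, for the 22 loci with the highest counts in 7 sets; lines only join the values of a set across the 9 libraries. The chromosome 29 locus and the set of 3 on chromosomes 7, 8 and 14 run in parallel, and the other 5 sets lie lower in the large than in the medium libraries, apart from large 12 and medium 6 in the set on chromosomes 3, 8 and 19.

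The count of chr14:9462539-9462555 was 1.61, 1.87 and 1.74% of that of the chromosome 29 locus in the small, 1.54, 1.73 and 1.88% in the medium and 1.95, 1.81 and 1.63% in the large libraries. Sizes overlapped fully, and the other 2 loci of its set had ratios of 1.51 to 1.89%. Among the 90 other loci with 1000 or more counts, 28 (31.1%) had a ratio to the chromosome 29 locus whose highest value was under 2 times its lowest over the 9 libraries. These 28 were picked out after their counts were seen, so the count is a description. The same limit held for 23 of 7507 deposited loci outside the group (0.306%), for 6 of 32 loci of 18 bases (18.8%), for 0 of 191 known and homologous miRNA loci and for 0 of 4752 loci over 30 bases. The steadiest was chr29:28703424-28703440, at 0.0348 to 0.0393% of the chromosome 29 locus. The 28 loci lay on 18 chromosomes, 18 were of 16 bases and 10 of 17, and together they were 5.286 to 6.405% of the chromosome 29 count in every library. They held 317872 counts, 32.73% of the counts outside the chromosome 29 locus, mostly on the set of 3, since the 25 others had 1018 to 4532 counts each. With these 28 also left out, the remaining loci had 0.931% ± 0.287 of all counts in small follicles, 0.738% ± 0.143 in medium and 0.234% ± 0.0905 in large ones. As the 28 ran with the chromosome 29 locus, leaving them out takes more from medium and large than from small libraries by construction.

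**Figure D4:**
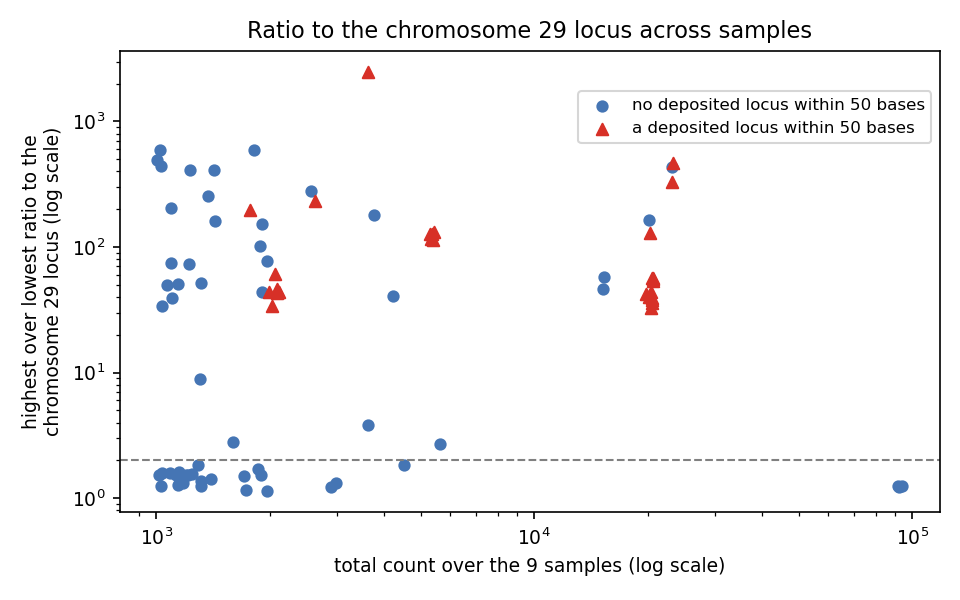
For each of 88 loci under 18 bases with 1000 or more counts and a count in every library, the highest over the lowest ratio to the chromosome 29 locus across the 9 libraries (y axis, log scale) against the total count (x axis, log scale); the dashed line is at 2 and symbols show whether another deposited locus lies within 50 bases. The 28 loci under the line are all circles, without such a neighbour, and the 29 triangles all lie above it.

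Loci with a steady ratio are set beside the others by their position as well, as a description with no test. None of the 28 had another deposited locus within 50 bases, whereas 29 of the 62 others with 1000 or more counts had one, on the same strand in all 29. Of all 998 loci, 86 (8.62%) had such a neighbour, against 6.49% of the other deposited loci and 28.0% of the loci of 18 to 24 bases outside the miRNA lists. In the 29 pairs, 8 to 45 bases lay between the loci, the neighbour was 17 to 46 bases long, and the short locus had the higher count in each, with a median ratio of 10.7. These short loci had been taken for their high counts, and of the 57 with fewer than 1000 counts and such a neighbour only 6 had the higher count, with a median ratio of 0.135. For example, chr8:89663095-89663110 lay 11 bases from a predicted miRNA locus of the study, chr8:89663122-89663138, which had 2714 counts.

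Change with follicle size was then tested locus by locus in a fit of all deposited loci. Counts were scaled by TMM, which sets the middle of the loci equal between libraries, and the false discovery rate (FDR) is the Benjamini-Hochberg adjusted p of edgeR's quasi-likelihood test over the 85601 loci with enough counts. Of the 998 loci, 738 entered the fit, and the 260 that did not had 1 to 146 counts. From small to large follicles, 263 of the 738 loci (35.6%) fell and 0 rose at an FDR under 0.05, where 5.63% of all tested loci fell and 0.231% rose. Of the 738 loci, 36 reached the minimum for entry in small libraries alone, so they had to be lower in the others, and 35 of them were among the 263. For the other 702, which reached it in more than 1 size, 228 fell (32.5%), beside 5.05% of all loci that did so. The 702 still include loci that reached it in small and medium but not in large libraries, such as chr4:112989890-112989905. Such loci had to be lower in large libraries too, so the filter also adds to these falls. At an unadjusted p under 0.05, 412 were lower and 2 higher, where 11.5% and 5.25% of all tested loci were. The 3 large libraries lay below the 3 small ones without overlap for 462 of the 738 loci and for 13.0% of all tested loci, and above them for 3 and for 12.9%. Falls were counted for 132 of 410 loci of 16 bases (32.2%) and 131 of 328 of 17 bases (39.9%), beside 13.7% of loci of 18 bases and 20.6% of loci of 18 to 24 bases outside the miRNA lists, and 3.78% of loci over 30 bases. The median log2 fold change was −1.38 over the 738 loci and 0.0861 over all loci. Loci of 18 bases outside the miRNA lists had nearly the same median (−1.37), and 752 of the 1119 tested were lower at an unadjusted p under 0.05, a larger part than the 412 of 738, so the downward shift was not confined to loci under 18 bases. The scaling matters for the direction: TMM factors were 0.407 to 0.617 in small, 0.721 to 1.93 in medium and 1.31 to 1.97 in large libraries. Scaled to the total count instead, the median of all loci was 1.81 and that of the loci under 18 bases 0.364, and 256 fell and 42 rose, where 5.02% of all tested loci fell and 59.5% rose. The distance between the medians was −1.46 with TMM and −1.45 with the total count.

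**Figure D5:**
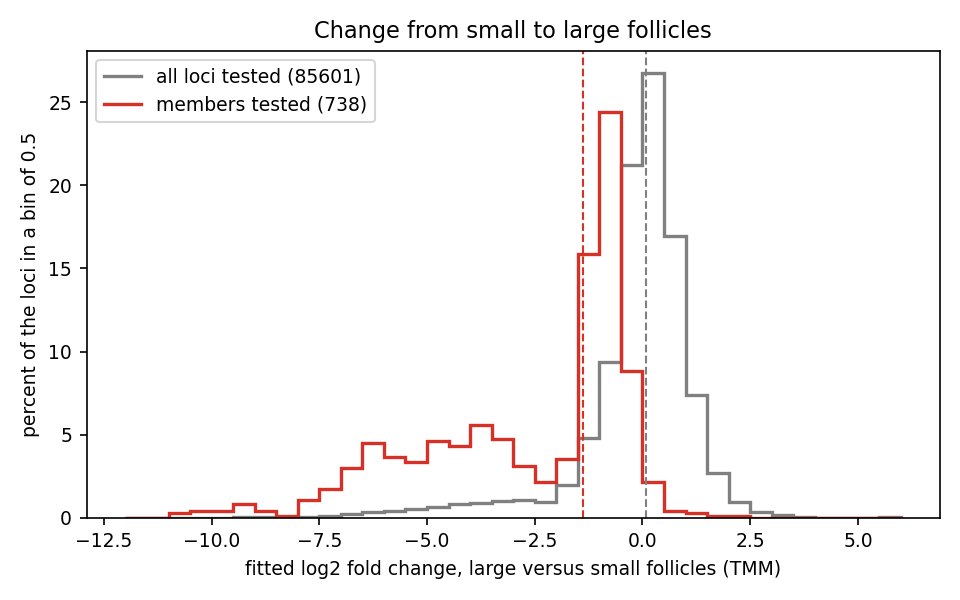
Percent of loci (y axis) in bins of 0.5 of the fitted log2 fold change from small to large follicles after TMM scaling (x axis), for the 738 loci under 18 bases and all 85601 loci tested; dashed lines are the medians, −1.38 and 0.0861. Scaled to the total count the medians were 0.364 and 1.81, so the sign for the short loci flips while the distance to all loci stays at −1.45.

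The chromosome 29 locus itself was not called. Its normalized count was 69100 ± 13500 CPM (SD, n = 3) in small follicles, 53500 ± 22300 in medium and 38700 ± 13500 in large ones. Its log2 fold change from small to large follicles was −0.84 (SE 0.57, FDR 0.526) with TMM and 0.88 (FDR 0.0108) with the total count, where it lay below the median of all loci (1.81). The set of 3 on chromosomes 7, 8 and 14 had −0.79 to −0.75 (FDR 0.441 to 0.471) with TMM and flipped in the same way with the total count (0.93 to 0.96).

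In the set of 4, chr7:31761158-31761173 had 9501, 4395 and 2502 counts in small, 1145, 1393 and 969 in medium and 263, 168 and 307 in large libraries. The sizes did not overlap, and its log2 fold change from small to large was −5.98 (SE 0.58, FDR 0.000495), while the step from medium to large did not pass (−2.51, FDR 0.295). In the set on chromosomes 3, 8 and 19, chr8:89663095-89663110 had 10828, 942 and 5755 counts in small, 3049, 468 and 1586 in medium and 36, 29 and 544 in large libraries. Small 2 lay closest to large 12, without overlap. This locus fell by 6.34 on the log2 scale (SE 1.44, FDR 0.0219), and for all 3 loci of the set the call was lost without small 1, small 4, large 10 or large 11 (FDR of 0.0527 to 0.0842). With each library left out in turn, the log2 fold change was −9.18 to −5.8 for chr8:89663095-89663110. It was −8.61 to −5.83 for chr3:51058570-51058585 and −9.16 to −6.0 for chr19:10017663-10017678, so the fall stayed large but its size was loosely fixed. The pair chr18:56396892-56396908 and chr24:32152234-32152250 was lower as well (log2 fold changes of −5.98 and −6.12, FDR 0.00513 and 0.00524). The set of 7 on chromosome 18 had values of −3.59 to −3.38 and was not called (FDR 0.0937 to 0.123). In the 29 pairs of neighbours, 28 neighbours and 22 short loci were called lower in large than in small follicles, where 5.63% of all tested loci were. The short loci came from the 62 loci with 1000 or more counts and no steady ratio, of which 38 (61.3%) were called lower. These pairs hold 26 different neighbours and short loci of 9 sets, so they are not 29 independent cases.

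The largest falls among called loci without overlap were of loci with 0 to 2 counts in a large library. The locus chr4:112989890-112989905 had 1144, 160 and 681 counts in small, 66, 16 and 15 in medium and 0, 2 and 1 in large libraries (FDR 0.000553). At chr18:12520638-12520653 there were 163, 40 and 59 counts in small, 16, 14 and 5 in medium and 0 in each large library, so it was at least 86.3-fold lower against a floor of 3 counts per library (FDR 0.000535). At chr9:16769657-16769672 the counts were 86, 71 and 30 in small, 10, 28 and 6 in medium and 0 in each large library, at least 62.0-fold lower (FDR 0.000475). In all 3 the small libraries lay highest, the medium between and the large lowest. None of the 3 reached the minimum for entry in large libraries. They entered the fit through small and medium libraries and had to be lower in large ones, so their FDR is no support for a fall.

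From small to medium follicles, 85 of the 738 loci fell and 0 rose (FDR under 0.05), against 1.45% and 0.0105% of all tested loci, and at an unadjusted p under 0.05 there were 259 and 1, against 6.63% and 3.04%. Without overlap, 225 were lower and 3 higher, where 8.02% and 5.4% of all tested loci were. The median log2 fold change was −0.677, and 0.048 over all loci. Loci of 18 bases outside the miRNA lists had a median of −0.225, and 26 of 1119 (2.32%) fell. With the total count instead of TMM, 96 fell and 25 rose, where 2.72% and 28.1% of all tested loci did, and the medians were 0.718 and 1.49. By edgeR's exact test 145 fell and by DESeq2 139, where 3.19% and 3.08% of all tested loci did. Of the 85 loci, 28 had entered the fit through small libraries alone, and of the 702 that reached the minimum in more than 1 size 57 fell (8.12%, and 0.946% of all such loci). The 702 still include loci that did not reach it in medium libraries, such as chr11:66703619-66703635, and that had to be lower there. The calls of the whole fit rested on single libraries. The count for the short loci was 6 without small 1, 57 without small 2, 24 without small 4, 0 without medium 5, 0 without medium 6 and 265 without medium 8, where 0.094, 0.48, 0.187, 0, 0 and 5.77% of all tested loci fell. All 4 loci of the set on chromosomes 7 and 18 were called (log2 fold changes of −3.53 to −3.47 and FDR 0.0113 to 0.0119). The largest falls among called loci without overlap were mostly of loci with few counts. At chr25:31635164-31635179 there were 23, 9 and 16 counts in small and 0 in each medium library, at least 12.8-fold lower (FDR 0.0119). At chr10:8847221-8847237 the counts were 54, 15 and 14 in small and 0, 0 and 1 in medium libraries (FDR 0.0119). Both loci had entered the fit through the small libraries alone, so they had to be lower in medium ones, and their FDR is no support for a fall. At chr17:19051663-19051678 they were 1380, 36 and 57 in small and 36, 13 and 4 in medium libraries (FDR 0.0427), so small 1 held most of them and small 2 equalled medium 5 before scaling. For these 3 loci and for the 3 loci of the set of 4 among the 10 highest totals, the call was lost without small 1, medium 5 or medium 6 (FDR of 0.058 to 0.228), for the loci on chromosomes 17 and 25 also without small 4, and for that on chromosome 17 also without large 10 or large 11.

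From medium to large follicles, 0 of the 738 loci were called in either direction by the quasi-likelihood test, as were 0.0% of all tested loci. At an unadjusted p under 0.05, 216 were lower and 0 higher, where 5.33% and 1.25% of all tested loci were. Without overlap, 175 were lower and 0 higher, where 5.97% and 6.21% of all tested loci were. With other tests, 60 were called lower by edgeR's exact test and 60 by DESeq2, where 0.556% and 0.529% of all tested loci were. With the total count instead of TMM, the quasi-likelihood test called 20 lower, where 0.161% of all tested loci were. Among loci with a mean of at least 100 counts in a size it called 7 of 157 lower, where 0.357% of all such loci were. The median log2 fold change was −0.8, and −0.00167 over all loci. Loci of 18 bases outside the miRNA lists were further down, with a median of −1.17, and of the 1119 tested 595 were lower at an unadjusted p under 0.05 and 675 without overlap. The smallest unadjusted p among lower loci belonged to chr13:72788267-72788282, which had 323, 110 and 104 counts in medium and 6, 4 and 2 in large libraries (FDR 0.169). It was followed by chr9:16769657-16769672 (FDR 0.169) and by chr15:76076489-76076505, with 67, 32 and 17 counts in medium and 1, 0 and 2 in large libraries (FDR 0.183). None of these lower loci reached the minimum for entry in large libraries, so they had to be lower there. On the higher side stood chr25:31635164-31635179, chr11:66703619-66703635 and chr4:71406343-71406359, with at most 29 counts in a large library and FDR of 0.794, 0.867 and 0.937.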

How the data were processed

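Small RNA libraries of 9 pools were sequenced. The authors removed adapters, mapped reads to the bovine genome (BWA 0.7.5a and UMD3.1, per the submitters' processing notes), merged the libraries to define loci of at least 45 reads per base, and deposited the counts of reads within each effective region, with no normalization. The deposited counts were used unchanged. Libraries were grouped by the labelled follicle size. No column of values was left unused, and no sample was left out. The loci and lists were chosen with earlier results of these data known.

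In R 4.3.3, loci kept by filterByExpr were normalized by TMM and fitted in 1 model of the 3 sizes with edgeR 4.0.16 (limma 3.58.1), and each pair of sizes was tested by the two-sided quasi-likelihood test with an FDR under 0.05. Shares per library were tested for a trend with size rank by exact permutation, two-sided, in Python 3.11.15 (numpy 2.4.6, scipy 1.17.1, pandas 2.3.3; figures with matplotlib 3.10.9). At this depth the 95% Wilson score interval of the summed share was narrow (4.19 to 4.22% in small 2), and intervals and floors cover counting error only. Loci are named by a rule: the chromosome 29 locus, the 10 highest totals, and per comparison the 3 largest rises and falls among called loci without overlap (where 0 were called, the 3 smallest p in each direction). The other loci of sets, the neighbours and chr29:28703424-28703440 were chosen after their values were seen. Alternatives were DESeq2 1.42.0, edgeR's exact test (the study's test), other scalings, filters and denominators, and each library left out in turn. On simulated data for large versus small follicles (84369 loci), the fit called 2 of 100 short loci changed by a log2 of 2 and 63 of 100 changed by 4, and 1 unchanged locus. No other loci were changed there, whereas 4823 were called lower in the data, so the FDR limit was stricter in the simulation.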

Additional observations from a re-analysis of the deposited data

How the results depend on the processing

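In the study each collection gave fluid of all 3 sizes, so pools of different sizes share collections. The labels give the sizes no shared replicate numbers, so no paired fit was run and the spread between collections stays in the tests. The known and homologous miRNA share was highest within its size in small 4, medium 8 and large 12 (26.9, 11.2 and 5.65%). Whether these pools share a collection was not tested. Left out of numerator and denominator, the chromosome 29 locus turned the large minus small difference of the summed share from 2.24 to −0.520 percentage points (exact permutation p = 0.06429), and that of the 10 highest loci from 11.2 to 14.9 (p = 0.07976). Leaving out each library gave 1.49 to 3.101 points for the summed share, 2.07 to 3.53 for the chromosome 29 locus, 9.23 to 13.5 for the 10 highest loci, −0.460 to −0.304 for the other loci of 16 bases, −0.219 to −0.0534 for loci of 17 bases and 14.6 to 19.3 for the chromosome 29 part. Without medium 6, the first 2 stayed at 2.24 and 2.76 with an unadjusted exact p of 0.04286 and 0.007143. Loci of 17 bases changed sign, to 0.237, among loci of at most 30 bases. These checks of the 16 and 17 base loci and the chromosome 29 part, counting 1 locus per set (245, 81 and 0 falls of 687 tested, 35.7, 11.8 and 0%, beside 5.63, 1.45 and 0% of all loci, which were not collapsed), and counting loci that passed the filter in more than 1 size (228, 57 and 0, beside 5.05, 0.946 and 0% of all such loci), were chosen after seeing the data.

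With a mean of at least 100 counts in a size, 157 loci were tested and 66, 31 and 7 fell (large versus small, medium versus small, large versus medium), where 17.4, 7.8 and 0.357% of the 11770 loci tested fell. The total count gave 42 and 25 rises in the first 2 comparisons and 20 falls in the last (59.5, 28.1 and 0.161% of all loci), and a fit of only small and large gave 1 rise (1.39% of all loci). For medium versus small, edgeR's exact test gave 145 falls and DESeq2 139 (3.19 and 3.08% of all loci), and for large versus medium each gave 60. Leaving out each library gave 198 to 355 falls and 0 to 1 rises, 0 to 265 falls, and 0 falls, where 2.62 to 6.81%, 0 to 5.77% and 0 to 0.00102% of all loci fell. Total-count scaling, which moved the median of all loci to 1.81 and 1.49, changed the sign, still below that median, of the chromosome 29 locus (0.88 and 1.06 for large and medium versus small), chr14:9462539-9462555 (0.93 and 1.05), chr7:23809993-23810009 (0.94 and 1.07) and chr8:7655165-7655181 (0.96 and 1.11). For medium versus small, the last 2 were also reversed without medium 5 (0.03 and 0.07, with ranges over libraries left out of −0.69 to 0.03 and −0.66 to 0.07), and the last with the filter at 100 (0.01). The cause was not tested. For large versus small follicles, the only comparison simulated, 2 of 100 short loci changed by a log2 of 2 were called. Far fewer loci were changed there than were called in the data, which makes the FDR limit stricter. The simulation therefore does not give the smallest change that the fit of the data could call.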

Other observations

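The 14 loci under 18 bases that the study lists as miRNA, 2 known or homologous and 12 predicted, held 0.180% ± 0.0419 of all counts in small follicles, 0.167% ± 0.0532 in medium and 0.119% ± 0.0322 in large ones (SD, n = 3 each), and no test was run on them.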
